A study of Homo sapiens with 8 samples.

Results

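snoRNA host genes are transcribed as long RNAs whose introns are cut into small nucleolar RNAs (snoRNAs), the guides that direct chemical modification of ribosomal RNA. The spliced exons that remain usually encode no protein, yet many are read by ribosomes and then degraded by nonsense-mediated decay (NMD), a decay route tied to translation. Many host genes begin with a terminal oligopyrimidine (TOP) tract, a C followed by further pyrimidines, which they share with ribosomal protein genes. The 10 noncoding hosts GAS5, SNHG1, SNHG5, SNHG6, SNHG7, SNHG8, SNHG12, SNHG15, SNHG16 and ZFAS1 were chosen by symbol. All 10 were found once in each count table, among 42125 listed genes in the table of TFAP2C KD and 23393 in that of UBA2 KD.

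The 8 mRNA-seq libraries came from HCT116, a human colorectal cancer cell line, in 4 groups of 2. By the labels all 8 carried a Tet-On shRNA against UBA2 (also SAE2), a subunit of the E1 enzyme of SUMOylation. The first experiment compared control siRNA with siRNA against TFAP2C, an AP-2 transcription factor, each for 48 hrs with no Dox named. The second compared cells given 1 μg/mL of doxycycline (Dox) for 5 days with controls that the labels describe as DMSO for 5 days and the methods as cells without Dox. The shRNA line is 1 stable line, and no arm with Dox and without the shRNA was part of the 8 libraries.

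Total counts lay between 18213739 and 24465109 per library. TFAP2C itself was at 18.9 and 20.5 CPM (counts relative to the library total after TMM scaling) with control siRNA and at 3.46 and 4.30 CPM with TFAP2C KD, a log2 fold change of −2.34 (SE 0.13, edgeR quasi-likelihood test, adjusted p = 7.67e-06). UBA2 mRNA was at 162 and 146 CPM in the controls and at 147 and 153 CPM in the libraries labelled UBA2 KD, so its RNA gave no sign of the knockdown (log2 fold change −0.04, 95% confidence interval −0.15 to 0.08, adjusted p = 0.766). These are therefore called the libraries labelled UBA2 KD. EPCAM, CDH1, KRT8, KRT18 and KRT19 were detected in all 8 libraries, VIL1 reached at most 0.144 CPM, and PTPRC, CD3E, COL3A1, PECAM1 and ALB reached at most 0.806 CPM. COL1A1, a fibroblast collagen, lay between 14.9 and 47.5 CPM. EPCAM, KRT8 and KRT18 rose in the libraries labelled UBA2 KD (adjusted p = 0.0414, 0.00405 and 7.79e-05), and their part in the host transcripts' changes was not tested.

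The first bases of the members show what several of these transcripts share. Windows of 70 bases, from 40 bases before the start site to 30 from it on, are given below 5′ to 3′ on the strand of the gene, with the TOP tract in capitals where one was found. A tract was counted where a C within 3 bases of the start was followed by at least 4 pyrimidines. Windows of RefSeq (GRCh38.p14) are shown for ZFAS1 at chr20:49278602-49278671 (plus strand), SNHG5 at chr6:85678704-85678773, SNHG7 at chr9:136728155-136728224 and SNHG12 at chr1:28581844-28581913 (minus strand), the 4 members whose RefSeq window held a tract.
ZFAS1: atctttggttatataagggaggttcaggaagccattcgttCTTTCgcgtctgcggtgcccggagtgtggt
SNHG5: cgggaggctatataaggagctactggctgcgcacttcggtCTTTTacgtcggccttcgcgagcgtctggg
SNHG7: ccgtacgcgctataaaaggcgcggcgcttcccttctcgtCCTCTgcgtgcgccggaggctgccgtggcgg
SNHG12: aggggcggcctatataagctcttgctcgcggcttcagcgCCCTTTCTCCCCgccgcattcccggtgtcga

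Start sites depend on the annotation. The RefSeq window of GAS5 held no tract, while the window at the start that the table of UBA2 KD gives for GAS5 (GRCh37, the assembly of hg19, chr1:173837096-173837165, minus strand) held one, as printed here because GAS5 was one of the members that rose. For ZFAS1 the reverse was found, as the start in that table held none. In neither annotation did ZFAS1, SNHG5 and GAS5 all hold a tract. SNHG5, SNHG7 and SNHG12 held one in both. SNHG6, which was not called, held one of 11 bases at its start in that table. SNHG1 (GRCh38.p14, chr11:62855856-62855925, minus strand) and SNHG16 (chr17:76557724-76557793, plus strand) are printed as 2 members without a tract by this rule.
GAS5: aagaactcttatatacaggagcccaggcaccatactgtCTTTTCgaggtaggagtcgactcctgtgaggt
SNHG1: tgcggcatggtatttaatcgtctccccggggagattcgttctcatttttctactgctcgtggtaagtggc
SNHG16: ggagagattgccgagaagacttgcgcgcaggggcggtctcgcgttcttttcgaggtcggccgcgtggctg

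The tract was found in 4 of the 8 members that the RefSeq table of promoters holds, in 13.0% of its 35116 windows and in 69.2% of 78 ribosomal protein genes. At the start sites of the table of UBA2 KD it was found in 5 of 10 members, in 11.7% of 23138 windows and in 39.0% of 77 ribosomal protein genes, so the order of members and ribosomal protein genes differed between the annotations. The letters TATAA, the core of a TATA box, were then searched 20 to 40 bases before the start on the strand of the gene, a search added after the windows had been read. They stood in 5 of 8 members in RefSeq (ZFAS1, SNHG5, SNHG7, SNHG8 and SNHG12) and in 3.77% of all windows. In windows of 300 bases, from 250 before the start to 50 after it, the AP-2 motif GCCNNNGGC was found on either strand in 5 of 8 members, the same 5, and in 23.2% of all. The E-box CACGTG was found in 1 of 8, SNHG7, and in 7.26% of all. At the start sites of the table of UBA2 KD, TATAA stood in 4 of 10 members, without ZFAS1, and in 2.52% of all windows. The AP-2 motif was found there in 6 of 10, with SNHG15 added, and in 25.5% of all. The E-box was found there in 2 of 10, with GAS5 added, and in 7.72% of all. A match of letters is a description and does not show that a factor binds there.

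With TFAP2C KD, none of the 10 host transcripts passed the threshold. By the edgeR test 0 of 10 had an adjusted p under 0.05, 1 had an unadjusted p under 0.05 and DESeq2 called 0, while 0.74% of the 14991 genes tested were called (0.26% higher and 0.48% lower). The members' log2 fold changes lay between −0.18 and 0.18, with standard errors of 0.066 to 0.085. Their median was 0.014, and that of all genes tested was −0.0038. In 7 of 10 members the pair of TFAP2C KD libraries lay wholly above (4) or below (3) the pair of controls, and 44.7% of all genes tested did so. Without the second TFAP2C KD library, 1 member and 2825 of all genes were called.

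In the libraries labelled UBA2 KD, ZFAS1, SNHG5 and GAS5 rose, and no member passed the threshold downwards. DESeq2 called 2 of them (ZFAS1 and GAS5), and 5 of 10 members had an unadjusted p under 0.05 in edgeR. In edgeR 3 of 10 were thus called, where 9.98% of the 13381 genes tested were called (5.52% higher and 4.47% lower). The members' median log2 fold change was 0.095 against −0.00042 for all genes tested, with 7 above 0 and 3 below. In 9 of 10 the groups did not overlap, 6 higher and 3 lower, as in 51.3% of all genes tested. With 2 libraries a group, and labels that do not say whether they were separate cultures, the p-values measure the spread between these libraries. In bulk RNA a change in the share of cells that make a transcript and a change in its amount per cell cannot be told apart.

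**Figure D1:**
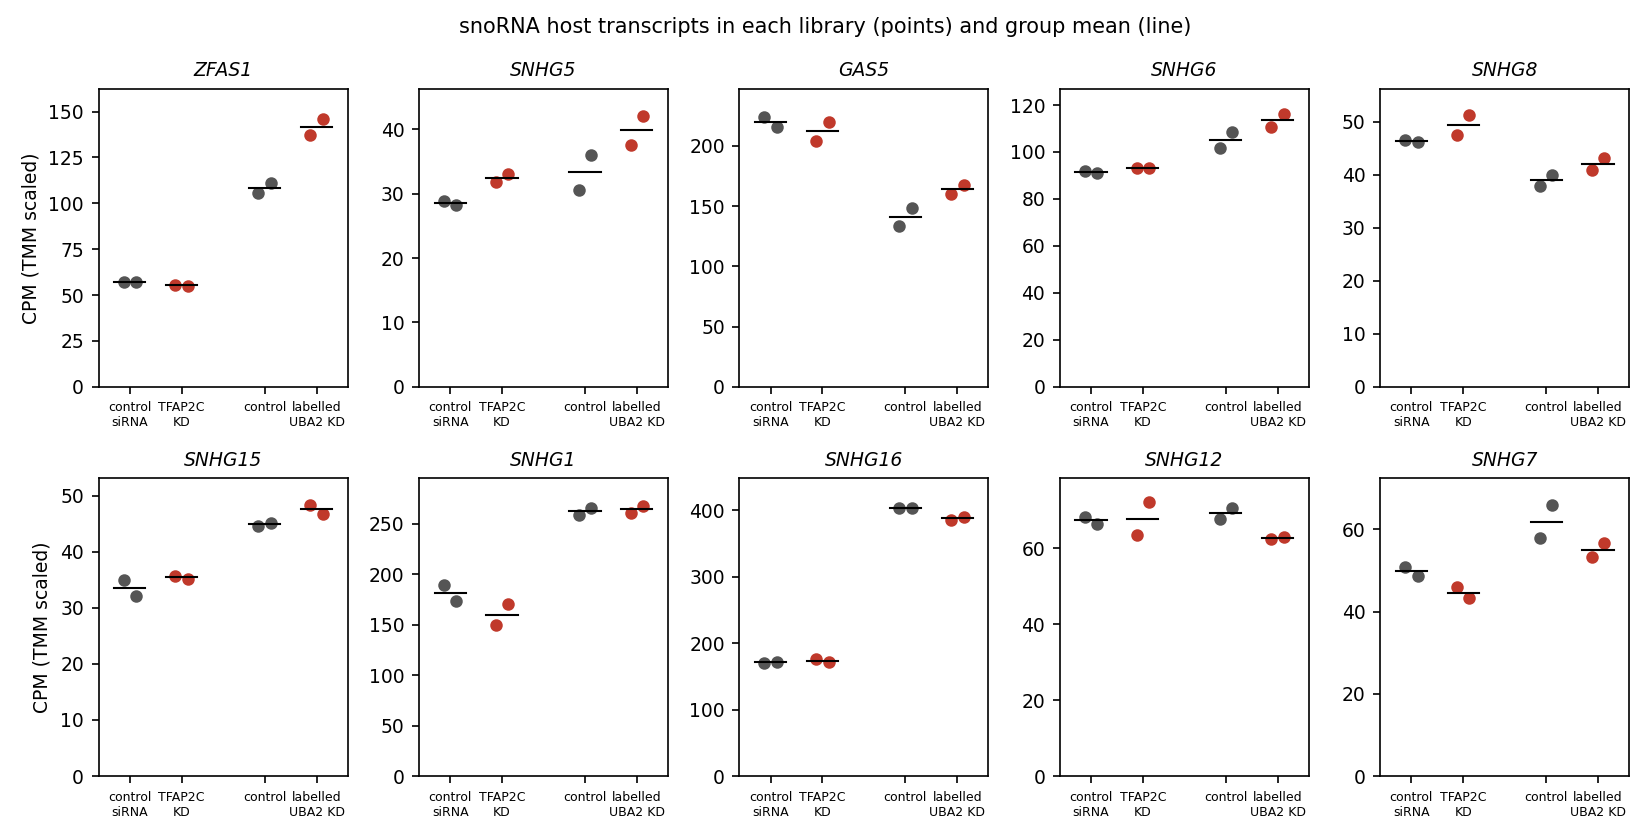
Level of each host transcript (CPM, TMM scaled, axis from 0) in every library, with control libraries in grey, those labelled KD in red and the group mean as a line. ZFAS1 at 137 and 146 CPM in the libraries labelled UBA2 KD lies above its controls at 106 and 111 CPM, while with TFAP2C KD its 4 libraries lie between 55.1 and 57.3 CPM. The experiments were counted on different gene models, so levels are compared only within an experiment.

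ZFAS1 (GRCh37, chromosome 20, 47894715 to 47905795, plus strand) starts beside the antisense start of ZNFX1 and hosts the box C/D snoRNAs SNORD12, SNORD12B and SNORD12C, a class that guides methylation of the ribose. It was at 106 and 111 CPM in the controls and at 137 and 146 CPM in the libraries labelled UBA2 KD. Both of the latter were above both controls. Its mean rose by 30.6%, from 108 ± 3.94 to 141 ± 6.10 CPM (SD, n = 2), a log2 fold change of 0.38 (SE 0.056, 95% confidence interval 0.27 to 0.50, edgeR adjusted p = 8.11e-06). With TFAP2C KD, ZFAS1 was at 57.3 and 57.2 CPM in the controls and at 55.4 and 55.1 CPM after knockdown. The groups did not overlap there, but the difference of −0.05 (SE 0.074, adjusted p = 0.805) was within its error.

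GAS5 (GRCh37, chromosome 1, 173833039 to 173837125, minus strand) was named for its accumulation in growth-arrested cells and hosts the most snoRNAs of the 10 in the table of UBA2 KD. Its controls were at 133 and 149 CPM, and the libraries labelled UBA2 KD were at 160 and 167 CPM, without overlap. The log2 fold change was 0.22 (SE 0.057, 95% confidence interval 0.10 to 0.33, adjusted p = 0.0104), a rise of 16.2%. This call rests on the first control library, without which it was 0.14 (adjusted p = 0.266), and it was lost in a fit of all 8 libraries (adjusted p = 0.0800). With control siRNA GAS5 was at 224 and 216 CPM and with TFAP2C KD at 204 and 220 CPM. These overlapped (−0.05, SE 0.069, adjusted p = 0.779).

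SNHG5 (GRCh37, chromosome 6, 86386725 to 86388451, minus strand), the host of SNORD50A and SNORD50B, was at 30.6 and 36.1 CPM in the controls and at 37.5 and 42.2 CPM in the libraries labelled UBA2 KD. The lower of the latter lay just above the higher control. The log2 fold change of 0.25 (SE 0.082, 95% confidence interval 0.09 to 0.42, adjusted p = 0.0432) was near the threshold. It lost the call in the Wald test of DESeq2 (adjusted p = 0.231), with library size only (0.0644), in a fit of all 8 libraries (0.126), without the first control (0.14, adjusted p = 0.450) and without the second library labelled UBA2 KD (0.17, adjusted p = 0.286). With TFAP2C KD the values were 28.9 and 28.2 CPM in the controls and 31.9 and 33.1 CPM after knockdown, without overlap. The estimate there was 0.18 (SE 0.085, adjusted p = 0.397), and did not pass.

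SNHG6, SNHG8 and SNHG15 lay higher than their controls in both experiments without passing the test in either. SNHG6 (GRCh37, chromosome 8, 67834165 to 67837777, minus strand), the host of SNORD87, was at 102 and 109 CPM in the controls and at 111 and 116 CPM in the libraries labelled UBA2 KD (log2 fold change 0.11, adjusted p = 0.258). SNHG8 (chromosome 4, 119199917 to 119200978, plus strand), the host of the box H/ACA snoRNA SNORA24, a class that guides pseudouridylation, was at 37.9 and 40.02 CPM and then at 40.9 and 43.1 CPM (0.11, adjusted p = 0.405). SNHG15 (chromosome 7, 45022627 to 45026259, minus strand), the host of SNORA9, was at 44.6 and 45.2 CPM and then at 48.4 and 46.7 CPM (0.08, adjusted p = 0.526). The groups of all 3 did not overlap, by margins of a few percent, and nor did those of 51.3% of all genes tested.

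With TFAP2C KD the same 3 transcripts also lay just above their controls. There the groups of 44.7% of all genes tested did not overlap, higher or lower. SNHG6 was at 91.7 and 91.1 CPM in the controls and at 93.2 CPM in both knockdown libraries (0.03, adjusted p = 0.899). SNHG8 was at 46.7 and 46.3 CPM and then at 47.5 and 51.4 CPM (0.09, adjusted p = 0.682). SNHG15 was at 35.05 and 32.2 CPM and then at 35.7 and 35.2 CPM (0.08, adjusted p = 0.753). None of these differences passed the test, and that of SNHG6 was −0.00020 when libraries were scaled by their size only.

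SNHG7, the host of SNORA17A and SNORA17B, and SNHG12, the host of SNORA16A, SNORA44, SNORA61 and SNORD99, lay lower in the libraries labelled UBA2 KD. SNHG7 (GRCh37, chromosome 9, 139615818 to 139622636, minus strand) was at 57.9 and 65.9 CPM in the controls and at 53.3 and 56.7 CPM in those libraries, without overlap. Its log2 fold change was −0.17 (SE 0.069, unadjusted p = 0.0183 and adjusted p = 0.121 in edgeR), and with 1 library left out it ranged from −0.26 (adjusted p = 0.0329) without the first control to −0.07 (adjusted p = 0.758) without the second. SNHG12 (chromosome 1, 28905050 to 28908383, minus strand) was at 67.7 and 70.6 CPM and then at 62.4 and 62.9 CPM, also without overlap. Its log2 fold change was −0.14 (SE 0.063, unadjusted p = 0.0293 and adjusted p = 0.160).

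With TFAP2C KD, SNHG7 was at 50.9 and 48.7 CPM in the controls and at 45.9 and 43.4 CPM after knockdown. Its log2 fold change of −0.16 (SE 0.080, adjusted p = 0.439) was again below 0 and did not pass. SNHG12 was at 68.4 and 66.5 CPM in the controls and at 63.5 and 72.2 CPM after knockdown. The knockdown libraries lay on both sides of the controls, and the estimate of 0.0084 (adjusted p = 0.980) changed sign with the scaling of the libraries.

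SNHG1 (GRCh37, chromosome 11, 62619460 to 62623360, minus strand), the host of SNORD22 and of SNORD25 to SNORD31, had the lowest estimate of the 10 with TFAP2C KD. It was at 189 and 174 CPM in the controls and at 150 and 171 CPM after knockdown, without overlap. The log2 fold change was −0.18 (SE 0.080, unadjusted p = 0.0431 and adjusted p = 0.378). Its value turned on the knockdown libraries, as it was −0.27 (adjusted p = 0.000842) without the second and −0.09 (adjusted p = 0.610) without the first. Without the first control it was −0.12. In the other experiment SNHG1 was at 259 and 266 CPM in the controls and at 261 and 268 CPM in the libraries labelled UBA2 KD. These overlapped, with a log2 fold change of 0.010 (95% confidence interval −0.09 to 0.11, adjusted p = 0.927) that was −0.02 when libraries were scaled by their size only.

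SNHG16 (GRCh37, chromosome 17, 74553846 to 74561430, plus strand), the host of SNORD1A, SNORD1B and SNORD1C, was at 403 CPM in both controls and at 386 and 390 CPM in the libraries labelled UBA2 KD, both below the controls. The log2 fold change was −0.06 (SE 0.044, adjusted p = 0.501). With control siRNA it was at 170 and 172 CPM and with TFAP2C KD at 175 and 171 CPM, which overlapped (0.019, adjusted p = 0.928, and −0.0095 with library size only).

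**Figure D2:**
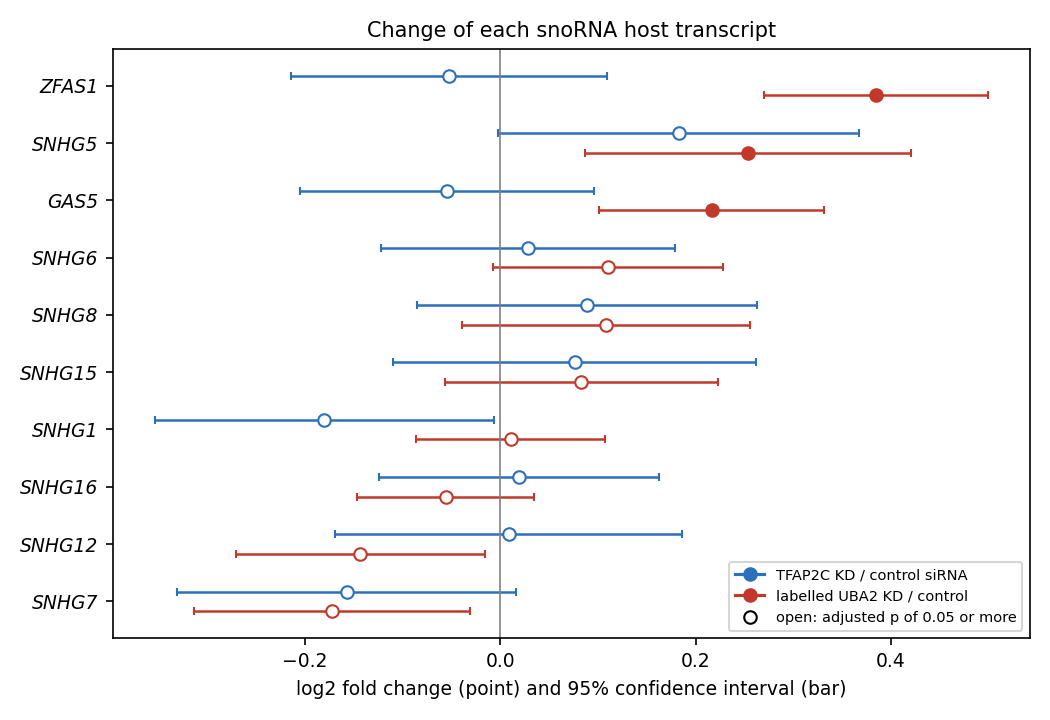
Log2 fold change of each host transcript (x axis) with its 95% confidence interval, for TFAP2C KD over control siRNA in blue and the libraries labelled UBA2 KD over control in red, where filled points have an adjusted p under 0.05. Only ZFAS1, SNHG5 and GAS5 are filled, each time for the libraries labelled UBA2 KD. The ZFAS1 intervals of the 2 experiments do not overlap.

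Summed over the 10 members, the level was 962 and 932 CPM with control siRNA and 902 and 945 CPM with TFAP2C KD. It was 1241 and 1295 CPM in the controls of the other experiment and 1298 and 1338 CPM in the libraries labelled UBA2 KD. The sums overlapped in the first experiment and not in the second, where the highest control and the lowest library labelled UBA2 KD were almost at the same level. The 10 transcripts took 0.0885% to 0.0976% of the counts in the first table and 0.125% to 0.133% in the second.

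The difference between the experiments was tested directly in a fit of all 8 libraries over the symbols that both tables share. It passed for ZFAS1 alone, as for 2.37% of the 13179 genes tested. The change of ZFAS1 with TFAP2C KD minus that in the libraries labelled UBA2 KD was −0.45 (SE 0.088, 95% confidence interval −0.64 to −0.26, adjusted p = 0.0115). With the replicate number as a block the same difference had an adjusted p of 0.0559, and it was 0.0740, 0.0949, 0.0993 and 0.0827 without the first or second control siRNA library, the first control or the second library labelled UBA2 KD, in that order. For GAS5 the difference was −0.28 (95% confidence interval −0.48 to −0.08, adjusted p = 0.161) and for SNHG1 −0.20 (95% confidence interval −0.41 to 0.0035, adjusted p = 0.359). With 1 library left out these ranged from −0.37 to −0.20 for GAS5 and from −0.31 to −0.091 for SNHG1 (adjusted p up to 0.505 and 0.760), and both passed without the second TFAP2C KD library alone (adjusted p = 0.00615 and 0.0101). SNHG1 was lowest in size without the first TFAP2C KD library. The other 7 had adjusted p-values of 0.600 or more. The experiments also differed in agent, time and gene model, which cannot be told apart from the target.

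Per kb of the gene model, SNHG6 had the highest level of the members in the controls of both tables, and the other ranks differed. In the table of TFAP2C KD, SNHG6 was the highest at 73.5 CPM per kb, followed by SNHG1 at 48.3 and GAS5 at 45.5, whose pairs of control libraries overlapped. SNHG8 at 41.7, SNHG16 at 31.9, ZFAS1 at 25.6, SNHG12 at 15.8, SNHG7 at 11.5, SNHG5 at 10.2 and SNHG15 at 9.22 CPM per kb came next, each apart from its neighbours in both libraries. In the table of UBA2 KD, SNHG6 was again the highest at 224 CPM per kb. SNHG16 at 111, ZFAS1 at 106, SNHG1 at 94.9, GAS5 at 83.5, SNHG8 at 63.2, SNHG5 at 33.1 and SNHG12 at 27.9 CPM per kb followed. SNHG15 at 14.3 and SNHG7 at 13.7 CPM per kb were the lowest and overlapped. The models behind these levels differ in length, as with 4.838 and 1.688 kb for GAS5 and 2.236 and 1.023 kb for ZFAS1 in the first and second table, so the levels of the tables are not comparable.

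Several hosts share their start region with a gene on the other strand, and SLC3A2 was the one such neighbour that passed the test. SLC3A2, the heavy chain of amino acid transporters at the plasma membrane, starts 123 bases from SNHG1 in the table of UBA2 KD. It was at 359 and 368 CPM in the controls and at 606 and 575 CPM in the libraries labelled UBA2 KD, with a log2 fold change of 0.70 (SE 0.045, adjusted p = 2.31e-13), while SNHG1 was at 0.010. With TFAP2C KD, SLC3A2 was at 175 and 204 CPM in the controls and at 205 and 212 CPM after knockdown (0.14, adjusted p = 0.489).

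ZNFX1, an antiviral helicase gene, overlaps ZFAS1 by 42 bases in the table of UBA2 KD and by 249 in that of TFAP2C KD. It was at 104 and 98.1 CPM in the controls and at 103 and 91.4 CPM in the libraries labelled UBA2 KD. The groups overlapped (log2 fold change −0.06, adjusted p = 0.648), in contrast to those of ZFAS1. With TFAP2C KD it was at 160 and 173 CPM and then at 192 and 178 CPM (0.15, adjusted p = 0.414).

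**Figure D3:**
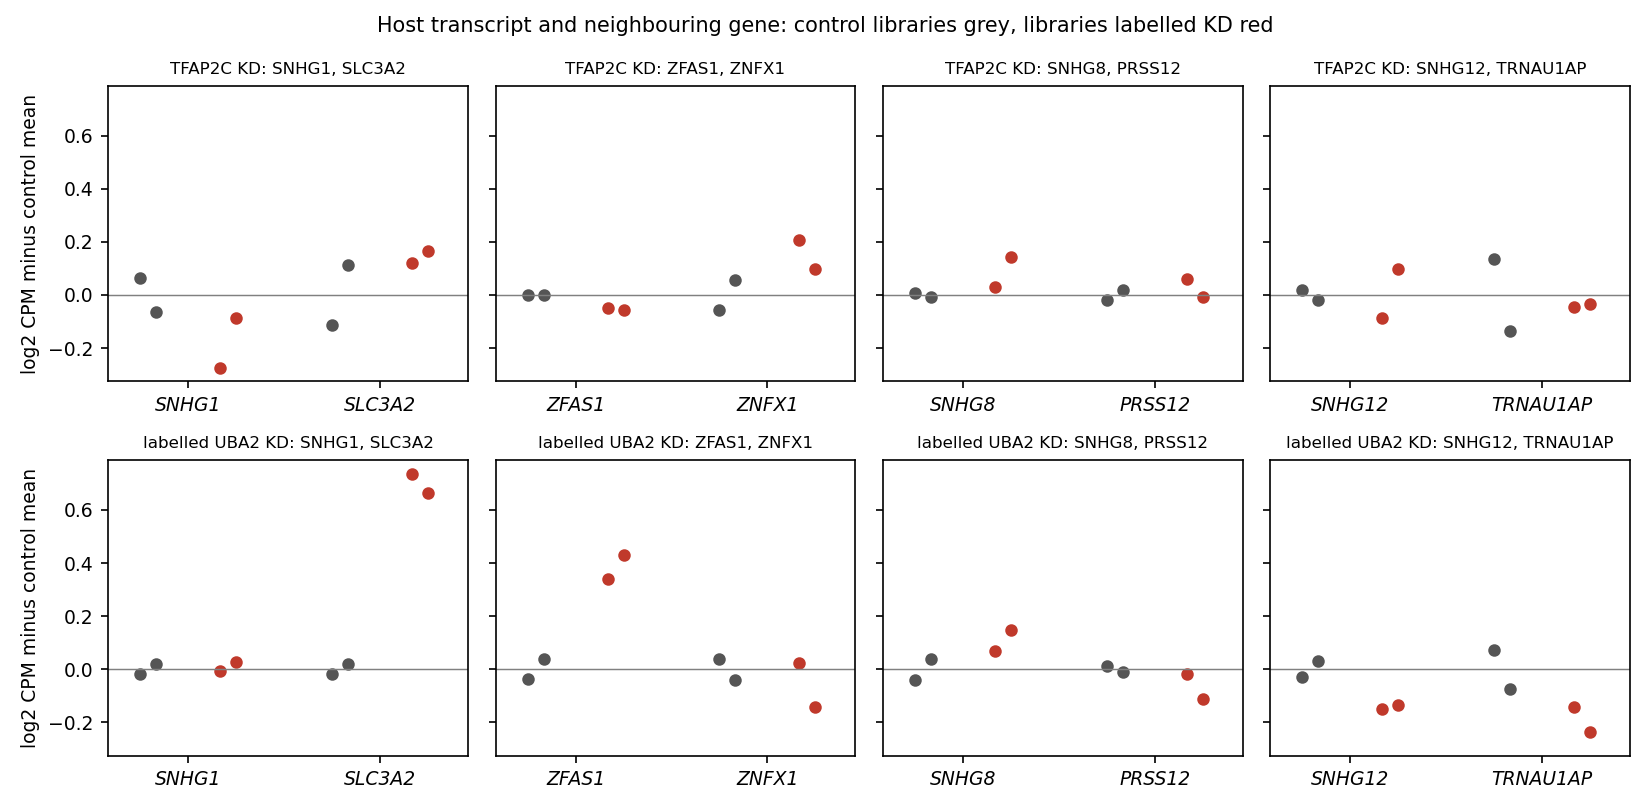
Level of a host transcript and of its neighbour in each library, as log2 CPM minus the mean of the controls, for 4 pairs (columns) in TFAP2C KD (top) and the libraries labelled UBA2 KD (bottom), with controls in grey and libraries labelled KD in red. SLC3A2 rose by 0.70 on the log2 scale while SNHG1 was at 0.010, and ZFAS1 rose by 0.38 while ZNFX1 was at −0.06.

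FAM69B (also DIPK1B) overlaps SNHG7 by 3353 bases on the opposite strand in the table of UBA2 KD. It was at 14.4 and 15.7 CPM in the controls and at 13.9 and 11.1 CPM in the libraries labelled UBA2 KD (log2 fold change −0.27, adjusted p = 0.134), lower as SNHG7 was. DIPK1B in the table of TFAP2C KD, with an overlap of 3377 bases, was at −0.11 (adjusted p = 0.666). The strand setting of the counting is not given, so reads of such pairs cannot be told apart.

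TRNAU1AP, a factor of selenoprotein synthesis that overlaps SNHG12 by 8 bases, was at −0.19 (adjusted p = 0.243) in the libraries labelled UBA2 KD and at −0.05 (adjusted p = 0.885) with TFAP2C KD. PRSS12, a serine protease gene 214 bases from SNHG8, was at −0.06 (adjusted p = 0.730) and 0.026 (adjusted p = 0.918). ZBTB37, beside GAS5, was at 0.07 (adjusted p = 0.864) and −0.13 (adjusted p = 0.703). ST6GALNAC2, a sialyltransferase gene 30 bases from SNHG16, was at 0.12 (adjusted p = 0.692) and −0.13 (adjusted p = 0.743). MYO1G near SNHG15 reached at most 1.22 CPM, and AC015802.4 and AC015802.6 at SNHG16 reached at most 1.03 and 2.75 CPM in TFAP2C KD, with 0 of the 3 called.

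The snoRNAs inside the hosts had few counts, and poly(A) selection is known to remove most mature snoRNAs. In the table of TFAP2C KD, 17 of 22 snoRNAs listed inside a member were at 0 in all 4 libraries, 3 were tested and 0 called by edgeR (0 at an unadjusted p under 0.05), with a lowest adjusted p of 0.441. In the table of UBA2 KD, 16 of 35 were at 0, 19 were tested and 0 called by edgeR (2 at an unadjusted p under 0.05), with log2 fold changes of −0.38 to 1.56 and a lowest adjusted p of 0.0614. DESeq2 called 0 and gave no adjusted p for 3 of 3 and 18 of 19 of these snoRNAs. Those of the second table span 43 to 134 bases, and a read of the unspliced host would also count there.

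The snoRNAs inside the 3 hosts that rose did not pass the test. The snoRNA counts given here are not scaled to the library totals. The 10 inside GAS5 held 413 and 479 counts in the controls and 405 and 438 counts in the libraries labelled UBA2 KD. SNORD79, the fullest of them, had 153 and 160 counts and then 144 and 151. After scaling its groups overlapped (log2 fold change 0.026, edgeR adjusted p = 0.934). The 3 inside ZFAS1 held 104 and 130 counts and then 110 and 112, and the pair inside SNHG5 held 50 and 56 counts and then 34 and 75. In all 3 hosts these sums overlapped between the groups. Outside them, SNORD1B inside SNHG16 had 3 and 6 counts in the controls and 10 and 15 in the libraries labelled UBA2 KD, and SNORD87 inside SNHG6 had 36 and 49 counts and then 53 and 63 (0.56, adjusted p = 0.110). Both lay higher in the latter without passing the test.

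Other genes of the pathway were counted from 7 lists in each fit. Over the lists 2 genes were called with TFAP2C KD, or 58 without its second knockdown library, and 22 in the UBA2 experiment, or 12 without its first control. In the libraries labelled UBA2 KD, 2 of 11 other noncoding snoRNA hosts rose and 1 fell, with a median of −0.07, 4 of 11 above 0. C6orf48 (now SNHG32) rose from 95.6 ± 4.70 to 118 ± 0.162 CPM (SD, n = 2; log2 fold change 0.30, adjusted p = 0.000384). LRRC75A-AS1 (now SNHG29) rose from 652 ± 39.5 to 738 ± 20.6 CPM (0.18, adjusted p = 0.00748). DANCR, which is also studied as a regulator of differentiation, fell from 56.4 ± 2.15 to 46.5 ± 0.837 CPM (−0.28, adjusted p = 0.00557). Without the first control 1 host of this list was called, and 3 of 11 stand beside 9.98% of all genes. With TFAP2C KD, 0 of 16 such hosts were called by edgeR (2 at an unadjusted p under 0.05) and 0 by DESeq2, 10 lay above 0, and their median was 0.04.

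Of 31 protein-coding genes that host snoRNAs, 3 passed upwards and 1 downwards in the libraries labelled UBA2 KD, with a median of 0.00071. Of all genes 9.98% were called, and the 4 calls of the list were 2 in the fit of all 8 libraries. HSPA9, the mitochondrial HSP70, rose by 0.23 (adjusted p = 0.000141) and TPT1, the translationally controlled tumour protein, by 0.19 (adjusted p = 0.000986) on the log2 scale. The other rise was that of DKC1. The lists share genes, so DKC1 is counted again among the snoRNP proteins and TPT1 among the TOP translation factors. HSPA8, the constitutive cytosolic HSP70, fell by 0.16 (adjusted p = 0.00227). With TFAP2C KD 0 of 32 were called by edgeR (1 at an unadjusted p under 0.05) and 0 by DESeq2, with a median of 0.05 and 25 above 0. The snoRNP proteins, which bind and process snoRNAs, had 2 of 19 higher in the libraries labelled UBA2 KD, the assembly factor ZNHIT6 (0.21, adjusted p = 0.0289) and the pseudouridine synthase DKC1 (0.18, adjusted p = 0.0134), at a median of 0.04. The count is close to the 9.98% of all genes called, and was 1 in DESeq2 or with library size only and 0 in the fit of all 8 libraries or without the first control. With TFAP2C KD 0 of 19 were called by edgeR (2 at an unadjusted p under 0.05) and 0 by DESeq2, at a median of 0.08 with 16 above 0.

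The mRNAs that NMD is known to limit had the highest median of the 7 lists in the libraries labelled UBA2 KD. There 8 of 14 rose, 0 fell and all 14 lay above 0, with a median of 0.41. Of all genes tested, 5.52% were called higher in the UBA2 experiment and 0.26% with TFAP2C KD. In that order, 49.9% and 49.1% lay above 0. The list was chosen with earlier results of these data known. UPP1, uridine phosphorylase, rose from 28.6 ± 0.446 to 73.3 ± 0.564 CPM (SD, n = 2; log2 fold change 1.36, adjusted p = 1.04e-15). DDIT3, the stress factor CHOP, rose from 12.7 ± 0.313 to 32.1 ± 0.713 CPM (1.34, adjusted p = 8.53e-13). Several of the 8, among them DDIT3, ATF4 (0.71), ATF3 (0.49) and SLC7A11 (0.95), are also known as genes of the ATF4 stress response. The rest of the list was not called (edgeR adjusted p of 0.335 or more). These were ERN1 (0.19), CDKN1A (0.093), MAP3K14 (0.085), GADD45A (0.075), PIM3 (0.039) and TBL2 (0.031), so the median does not describe every gene of the list. The parts of NMD and of the ATF4 stress response were not tested. The NMD factors themselves had 0 of 26 called by edgeR (1 at an unadjusted p under 0.05) and 0 by DESeq2, with a median of 0.03 and 17 above 0. With TFAP2C KD, 1 of 14 NMD-sensitive mRNAs rose, the cell cycle inhibitor CDKN1A, from 458 ± 20.4 to 709 ± 48.5 CPM (0.63, SE 0.073, adjusted p = 0.00169; 4 passed without the second TFAP2C KD library), and 0 of 26 NMD factors were called by edgeR (1 at an unadjusted p under 0.05) or DESeq2, with a median of 0.017 and 18 above 0.

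The last 2 lists hold genes known for TOP tracts, and are read against 5.52% of all genes called higher in the UBA2 experiment and 0.26% with TFAP2C KD. In the libraries labelled UBA2 KD 3 of 15 TOP translation factors rose, with a median of 0.06, TPT1 first (0.19) and the elongation factor EEF1A1 next (0.14, adjusted p = 0.0287). Of 78 ribosomal protein genes 4 rose, with a median of 0.05 and 63 above 0 (49.9% of all genes tested lay above 0), the largest being RPL12 (0.16, adjusted p = 0.0233) and RPS18 (0.15, adjusted p = 0.0202). Without the first control 1 TOP translation factor and 0 ribosomal protein genes passed. With TFAP2C KD 0 of 14 TOP translation factors were called by edgeR (1 at an unadjusted p under 0.05) or DESeq2 (median 0.07, 9 above 0). Of 79 ribosomal protein genes 1 was called there, RPL41, which rose from 17.8 ± 2.895 to 26.8 ± 1.34 CPM (0.58, adjusted p = 0.0368), with a median of 0.10 and 72 above 0 (49.1% of all genes tested). RPL41 was not called with library size only or without the second control siRNA library, where 0 ribosomal protein genes passed, and 29 passed without the second TFAP2C KD library. Many of these genes have near-identical processed pseudogenes, so their counts are uncertain.

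**Figure D4:**
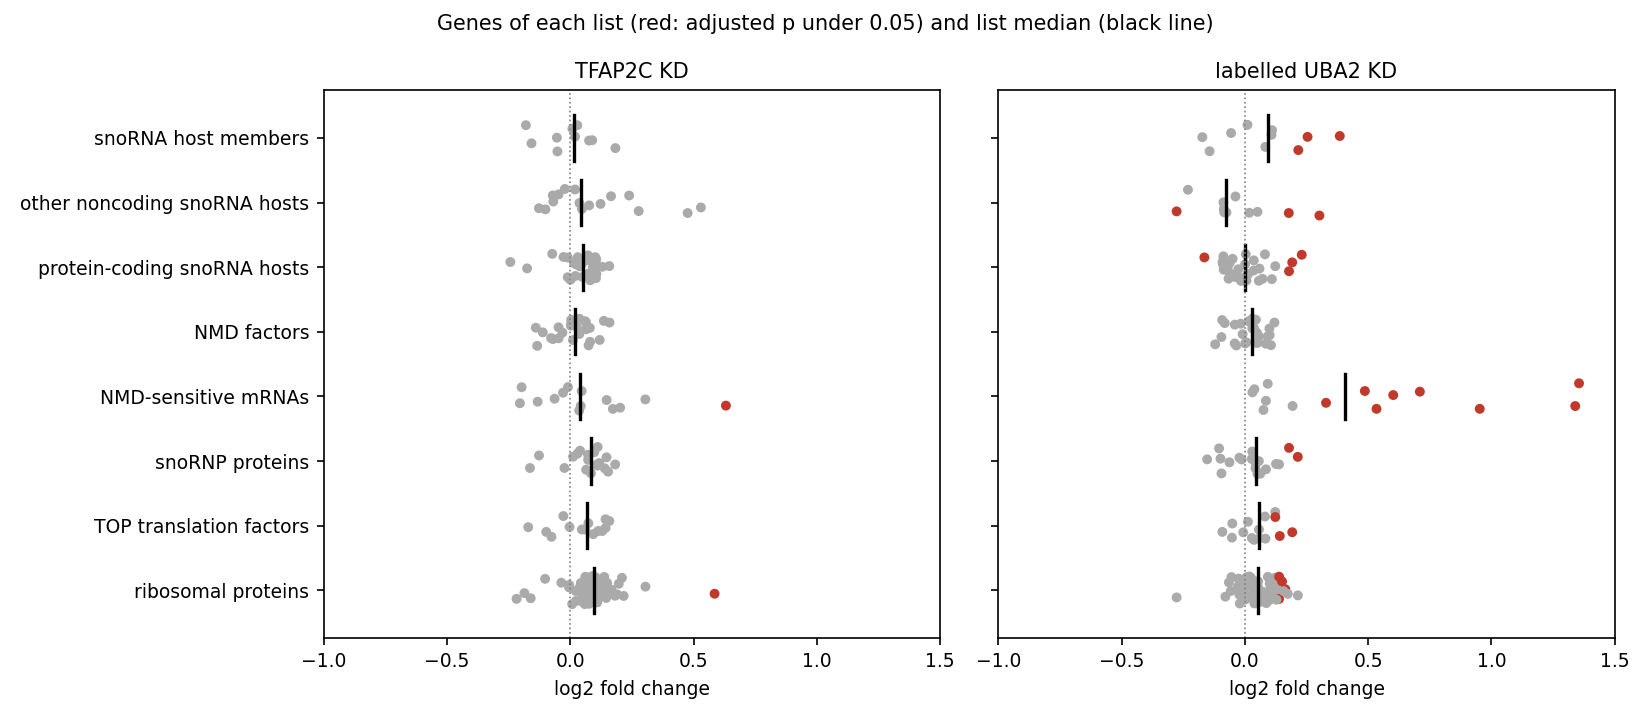
Log2 fold change (x axis) of each tested gene of the members and of the 7 lists (rows), with genes of an adjusted p under 0.05 in red, others in grey and the median of the list as a black line. For the libraries labelled UBA2 KD, the NMD-sensitive mRNAs have a median of 0.41 and the members of 0.095, while with TFAP2C KD no member is red and their median is 0.014.

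Across the 8 libraries, after the mean of each experiment had been removed from log2 CPM, the members did not all vary together. Correlation with the members' mean was high for GAS5 (r = 0.947), SNHG6 (0.899), SNHG5 (0.823), SNHG8 (0.795) and ZFAS1 (0.767). It was lower for SNHG15 (0.451) and SNHG1 (0.402), near 0 for SNHG7 (−0.060) and SNHG12 (−0.11), and negative for SNHG16 (−0.69). Of 10992 other genes, those most like the mean were WARS2, a mitochondrial tRNA synthetase (r = 0.954), MTRNR2L1 (0.954), the ribosomal protein gene RPL22 (0.949), TCEA2, a transcription elongation factor (0.940), and GDAP1, a mitochondrial outer membrane protein (0.937). The points are 8 libraries in 2 experiments, each member is part of the mean, and genes of 1 library share its depth, so these values are a description.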

How the data were processed

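Per the labels and the methods, total RNA of HCT116 cells was made into poly(A)-selected libraries and sequenced as single-end reads. The authors aligned the reads with TopHat2 to hg19 and counted them on RefSeq genes with HTSeq (0.9.1 in the submitters' processing notes), with no strand setting given in the sources used here, and deposited raw counts per gene in a table for each experiment. The table of TFAP2C KD gives positions of GRCh38, unlike hg19 in the methods. Groups were taken from the labels.

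Members and lists were chosen with earlier results of these data known, and the lists were written from general knowledge. In R 4.3.3, each table was filtered with filterByExpr of edgeR 4.0.16 and scaled by TMM. Each group labelled KD was compared with its control by the two-sided quasi-likelihood test, with Benjamini-Hochberg adjustment over all genes tested and a threshold of 0.05. The biological coefficient of variation was 6.28% for TFAP2C KD and 3.56% for UBA2 KD at 18213739 to 24465109 counts per library. The difference between experiments was tested over 13179 genes of 21257 shared symbols. A correlation of members with their mean used log2(CPM + 0.5).

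Genes named are the members, tested neighbours within 5000 bases, the targets, up to 2 rises and 2 falls per list, and the 5 genes most like the members with log2 CPM averaging 1 or more. ATF4, ATF3, SLC7A11 and the NMD-sensitive mRNAs not called in the UBA2 experiment were named after their values were seen. Rows named by Rfam families were left out of the neighbours, and some neighbours are not reported here. Alternatives were library size only and DESeq2 size factors, DESeq2 1.42.0, no filter, at least 10 counts throughout, a block for replicate number, a joint fit of all 8 libraries and leaving out each library. Promoter windows came from RefSeq (8 of 10 members matched) and, for GRCh37, from the genome at the table's start sites (Python 3.11.15, pysam 0.24.0). The code was tested on simulated data.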

Additional observations from a re-analysis of the deposited data

Results flagged for a closer look

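ZFAS1 passed a test of the difference between the 2 experiments, though not in every alternative. Its log2 fold change was 0.38 in the libraries labelled UBA2 KD against −0.05 with TFAP2C KD, a difference of −0.45 (edgeR quasi-likelihood test over all 8 libraries, adjusted p = 0.0115). The value with TFAP2C KD was within its error (SE 0.074, adjusted p = 0.805). Agent, time and gene model also differed between the experiments and cannot be told apart from the target. The difference kept its sign in the alternatives run, from −0.49 to −0.41, with adjusted p-values from 0.00109 to 0.0993.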

How the results depend on the processing

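Of the members called, ZFAS1 passed in all 11 alternatives of the UBA2 experiment, with log2 fold changes of 0.34 to 0.43, while GAS5 failed in 2 and SNHG5 in 5. Member calls there were 3, 1 in the fit of all 8 libraries and 2 to 3 with 1 library left out. With TFAP2C KD they were 0, and 0 to 1 with 1 library left out, the call being SNHG1. The cause was not tested.

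Genes called with TFAP2C KD were 111, 398 with no filter, 172 with the replicate block, 271 with all 8 libraries, 467 with a crossed block added after seeing the data, and 49 to 2825 with 1 library left out (2825 without the second knockdown library, 537 without the first and 49 without the first control). For UBA2 KD they were 1336, 673 in the DESeq2 Wald test, 696 with all 8 libraries and 833 to 1271 with 1 left out (833 without the second control). The members' median was −0.014 with TFAP2C KD and 0.069 for UBA2 KD with library size only, and −0.0069 to 0.0193 and 0.0677 to 0.122 with 1 library left out. Calls over the lists with TFAP2C KD were 2, 1 with library size only, 7 with the crossed block and 1 to 58 with 1 left out (58 without the second knockdown library). For UBA2 KD they were 22, 12 with all 8 libraries and 12 to 22 with 1 left out (12 without the first control). Differences between the experiments called among members were 1, 0 with the replicate block and 0 to 3 with 1 left out, the 3 being without the second TFAP2C KD library.

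Signs turned in small values. With library size only, SNHG6 was −0.00020, SNHG12 −0.019 and SNHG16 −0.0095 with TFAP2C KD, and SNHG1 −0.016 for UBA2 KD. In the fit of all 8 libraries SNHG12 was −0.0015 with TFAP2C KD. With 1 library left out, SNHG12 ranged from −0.084 to 0.099 with TFAP2C KD and SNHG1 from −0.0074 to 0.030 for UBA2 KD. Differences between the experiments then ranged from −0.097 to 0.0999 for SNHG7 (−0.00072 with the replicate block), −0.062 to 0.047 for SNHG15, −0.099 to 0.046 for SNHG8 and −0.21 to 0.035 for SNHG5.

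Over all genes tested, samples of the same replicate number did not deviate together (correlation of deviations −0.18 for TFAP2C KD and 0.016 for UBA2 KD), so the numbers were not read as pairs. The members' sum in the UBA2 experiment was nevertheless higher in replicate 2 of both groups (1241 and 1295 CPM in the controls, 1298 and 1338 CPM in the libraries labelled UBA2 KD). ZFAS1, GAS5 and SNHG5 each lay higher in replicate 2 of both groups as well. With TFAP2C KD the sum was lower in replicate 2 of the controls and higher in that of the knockdown. With the replicate number as a block, 0 members were called with TFAP2C KD and 3 for UBA2 KD, among 172 and 1308 genes. With the crossed block 0 members were called. Where a group kept 1 library, that library was taken to vary like the others. The standard errors of the members, 0.044 to 0.085, limit what changes could be called, and the fullest snoRNA inside a member held 608 counts over its 4 libraries.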
